A study of Mus musculus with 127 samples.

Results

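The 52 mouse genes described here encode the machinery that docks, primes, fuses and recycles synaptic vesicles at presynaptic terminals. They were chosen by name from the known proteins of vesicle release, with earlier results of these data known. All 52 were matched by identifier among the 53465 genes of the count table. For description they were placed in 8 roles. These are SNARE proteins and their regulators (8 genes), SNARE disassembly (3), calcium sensors (6), priming and active zone (9), Rab3 with its effector (4), vesicle proteins (12), endocytosis and recycling (8) and a chaperone with a synuclein (2).

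At a synapse, the vesicle SNARE synaptobrevin pairs with syntaxin and SNAP-25 on the plasma membrane, and zippering of this complex brings the membranes together. Munc13 and RIM proteins prepare docked vesicles, Rab3 GTPases guide them to the release site, and synaptotagmins trigger fusion when calcium enters. NSF and its adaptors then take the spent complexes apart, while dynamin, endophilin, amphiphysin, synaptojanin and auxilin retrieve and uncoat the vesicle membrane. Most neurons of the striatum are GABAergic projection neurons, so this machinery serves inhibitory release from their axons. In Huntington's disease, which is caused by an expanded polyglutamine tract in huntingtin, these neurons are the most vulnerable.

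Striatal neurons of newborn C57BL/6 mice grew singly on microislands of cortical astrocytes, were recorded with a patch pipette, and their content was collected for RNA sequencing. The 4 groups of neurons carried human huntingtin exon 1 fused to GFP from a lentivirus, with 25 or 97 glutamines (25Q, 97Q), and each construct was given either vehicle (DMSO) or 100 nM RGFP109, an inhibitor of histone deacetylases, every 3 days from day 6 in culture, with collection at day 15. The groups held 29 neurons (25Q vehicle), 26 (97Q vehicle), 23 (25Q RGFP109) and 26 (97Q RGFP109), all wild type apart from the virus and each spread over batches 1, 2 and 3. Empty vector neurons (9), which received virus without the huntingtin cassette and vehicle, and untreated cortical astrocytes (14) were in batch 3 only. The model is overexpression of a huntingtin fragment in neurons that synapse on themselves. The promoter of the vector and the number of animals are not given in the sources.

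Counts of all cells sharing group and batch were summed, which gave 12 sums of transgene neurons, and are given as CPM, counts scaled to a common total of 1e6 in each sum. The batch was the replicate (n = 3 sums a group). The labels name no animal or culture, so p-values measure only the spread between these sums, which may be technical. Cells had 999700 to 9263305 counts (median 4440040), and 6433 to 15455 genes were detected in each. Batch 2 held 3 or 4 cells a group and was shallower in genes, with a median of 8877 genes a cell against 12436 in batch 1 and 11806 in batch 3. The neuron label was checked on 14 pan-neuronal markers, which summed to 8456 CPM in the empty vector neurons and to 932 CPM in the astrocytes, and on 3 GABAergic markers, which summed to 4376 CPM and 0.782 CPM. Astrocyte markers exceeded 1048 CPM in 8 neurons, 7 of them with a transgene. One 97Q RGFP109 neuron of batch 2 stood apart. It had the lowest pan-neuronal markers of all transgene neurons (1012 CPM) and the lowest sum of the 52 genes (1111 CPM, with a count in 36 of them), and its astrocyte markers were at 8.52 CPM.

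A transgene neuron had a count in a median of 48 of the 52 genes (range 35 to 51), an empty vector neuron in 49 (46 to 51) and an astrocyte in 29 (20 to 37). Together the 52 genes took 13229 ± 2086 CPM in 25Q vehicle neurons, 13323 ± 890 CPM in 97Q vehicle, 15258 ± 717 CPM in 25Q RGFP109 and 12932 ± 3243 CPM in 97Q RGFP109 (mean ± SD, n = 3 sums each). These totals overlapped between the vehicle groups. The 97Q RGFP109 group held both the lowest sum (9394 CPM, batch 2) and one of the highest (15763 CPM, batch 3). The neuron that stood apart gave 4460342 of the 12935528 counts of that batch 2 sum, at 1111 CPM of the 52 genes. The other neurons of that sum had 11517 to 19001 CPM. Vesicle proteins were the role with the widest spread of group means, from 2389 ± 316 CPM in 25Q vehicle to 4130 ± 1305 CPM in 25Q RGFP109. Without Synpr, whose counts in 25Q RGFP109 lay largely in batch 2, the highest mean was 3347 ± 744 CPM in 97Q RGFP109 and that of 25Q RGFP109 was 3092 ± 836 CPM.

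Levels of different genes were compared as CPM per kilobase of exon length, as a mean over the 12 sums. Snap25, the plasma membrane SNARE with a pair of helices in the fusion complex, was the highest at 320 CPM per kb (range 201 to 516). Syngr3, a vesicle membrane protein of the synaptogyrin family, followed at 297 CPM per kb (119 to 453), then Syt11, a synaptotagmin that does not bind calcium, at 240 (165 to 327), and Rab3a, the main Rab3 of vesicles, at 233 (62.2 to 441). The ranges of these leading genes overlapped, so their order is not resolved beyond the spread of the sums. Syt5, a further synaptotagmin, was at 139 CPM per kb, the NSF adaptor Napa at 131, Syp, the vesicle membrane protein synaptophysin, at 125, and Syt4, another synaptotagmin that is not a calcium trigger, at 123.

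The fast calcium sensor Syt1 was at 62.4 CPM per kb, below Syt11, Syt5 and Syt4. Its range (16.7 to 114) overlapped those of Syt5 (33.1 to 247) and Syt4 (75.1 to 312). Before division by length, Syt1 (520 CPM) was above Syt5 (330) and Syt4 (479) and below Syt11 (1250). The Syt1 relatives Syt7, a slow sensor, and Syt2, the fast sensor of hindbrain and other synapses, were at 2.04 and 0.354 CPM per kb. Only 10 transgene neurons had a count for Syt2, and it was the 1 member left out of the tests for low counts. Unc13b (Munc13-2, 1.22 CPM per kb) and Vamp1 (synaptobrevin-1, 0.666) closed the list, each below its relative, Unc13a (Munc13-1, 3.93) and Vamp2 (synaptobrevin-2, 106). Rab3a exceeded Rab3b (53.1) and Rab3c (19.9), and Cplx1 (complexin-1, a clamp and activator of SNARE fusion, 91.8) exceeded Cplx2 (3.28). Among the glycoproteins SV2, Sv2a (85.8) was far above Sv2c (6.88) and Sv2b (2.44). The large scaffolds of the active zone, Bsn (bassoon, 3.58) and Pclo (piccolo, 6.23), were low per length. Measured against the genes that had an exon length and a count in the transgene sums, the members ran from the 50.8th percentile (Syt2) to the 99.7th (Snap25).

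**Figure D1:**
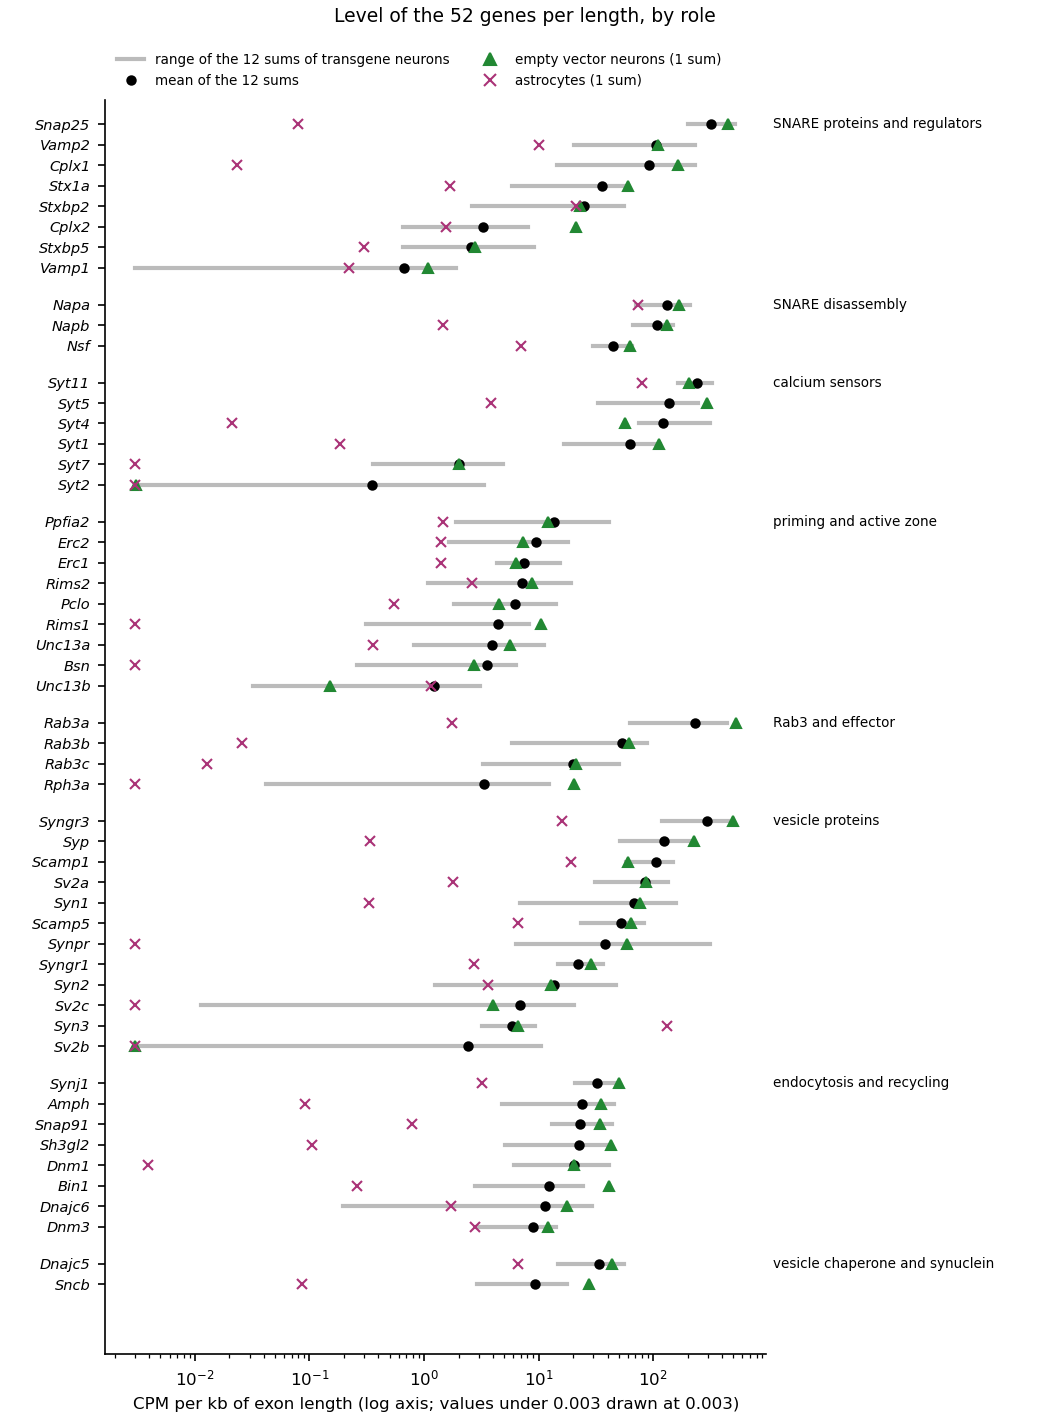
Level of each of the 52 genes in CPM per kilobase of exon on a log axis, by role; a bar spans the 12 sums of transgene neurons, a dot is their mean, a triangle is the empty vector sum and a cross the astrocyte sum of batch 3. Snap25 (mean 320), Syngr3 (297), Syt11 (240) and Rab3a (233) lead, and Syt2 (0.354) is lowest.

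Members differed widely in how evenly single neurons carried them. The spread was taken as the SD of log2(CPM + 1) over the transgene neurons of the 4 groups. It was largest for Synpr (synaptoporin, a relative of synaptophysin) at 3.72, then Sv2c at 3.24, Rab3b at 3.23 and Syn2 (synapsin-2, which tethers vesicles in the reserve pool) at 2.96. Synpr had a median of 18.0 CPM, a maximum of 7385 CPM and a count in 84.6% of the neurons. One neuron held 43.1% of the Synpr counts of the 25Q RGFP109 group, where the batch 2 sum was 2963 CPM against 64.1 and 87.3 CPM in batches 1 and 3. The smallest spreads belonged to Syt11 (0.934), Napb, the brain form of the NSF adaptor (0.945), Snap25 (1.02) and Scamp1, a carrier membrane protein (1.10). In this spread, differences between neurons and the sampling of RNA by the pipette cannot be told apart.

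Empty vector neurons and astrocytes of batch 3 were set side by side to see how far the machinery belongs to the neurons of these cultures. With 1 sum a group there is no test. A gene was counted as different at 4-fold or more with at least 100 counts in one of the sums, and the intervals are exact and cover counting error only. Of the 52 genes, 42 were higher in the neurons, against 23.2% of the 15563 genes measured, and 2 were lower, against 21.6%. The members were chosen with earlier results of these data known, and the part of that choice in these counts was not tested. The median ratio of neuron to astrocyte was 33.5 for the members and 1.15 for all genes. The count was 37 when the richest empty vector neuron of each gene was left out, and 45 by the medians over cells. All 8 endocytosis genes and all 4 genes of the Rab3 role were higher, as were 7 of 8 SNARE genes, 8 of 12 vesicle proteins, 7 of 9 priming genes and 4 of 6 sensors.

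Snap25 was at 3087 CPM in the neurons and 0.538 CPM in the astrocytes, a ratio of 5735 (95% interval 4384 to 7657). Cplx1 had 5 counts in the astrocyte sum and a ratio of 7094 (3039 to 21852). Synpr (ratio 55456, interval 9952 to 2190490) and Rph3a, the Rab3 effector rabphilin (9328, 1673 to 368520), rested on 1 astrocyte count each. Dnm1, the neuronal dynamin that cuts vesicles from the membrane, rested on 2 (5247, 1452 to 43343). Without the richest empty vector neuron of each gene, which held 72.4% of the Synpr counts, the ratio was 17574 for Synpr and 4558 for Cplx1. Bsn and Sv2c had no astrocyte count, which allows up to 0.0305 CPM, and were at least 1440-fold and at least 1272-fold higher in the neurons (at least 1267-fold and at least 803-fold without the richest neuron).

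In all, 6 members differed by less than 4-fold between neurons and astrocytes. These were Syn2 (3.56-fold higher in neurons), the active zone protein Rims2 (3.32), Scamp1 (3.11), Syt11 (2.60), Napa (2.29) and Stxbp2, a Munc18 protein known from secretion outside neurons (1.09). Napa and Syt11 stood among the 8 highest members in neurons and were also the highest in astrocytes per length after Syn3, at 73.6 and 79.8 CPM per kb. Stxbp2 was at 96.4 CPM in the neurons and 88.4 CPM in the astrocytes.

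The 2 members on the astrocyte side were Syn3 (synapsin-3), at 80.7 CPM in neurons and 1625 CPM in astrocytes, and Unc13b, at 3.44 and 26.4 CPM. Syn3 (chr10:86055125-86498896, minus strand, GRCm38) lies across Timp3, a gene for an inhibitor of metalloproteinases on the opposite strand, and 1733 of its exon bases (14.1%) are shared with it. Timp3 was at 3950 CPM in the astrocytes and 54.8 CPM in the neurons. The library kit does not mark strand and no source says how the counting treated strand, so reads of Syn3 and Timp3 cannot be told apart where they overlap. In all, 18 members share exon bases with another gene, among them Syp with Gm14703 (16.8% of the Syp exon length).

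**Figure D2:**
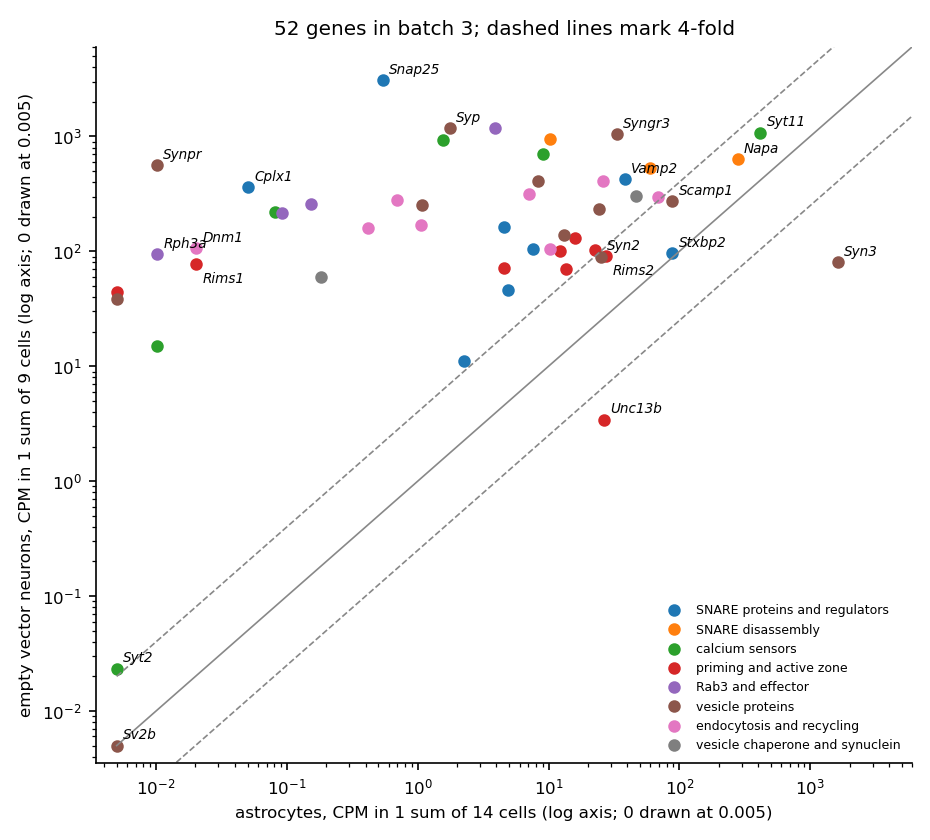
CPM of each member in the empty vector sum (9 neurons) against the astrocyte sum (14 cells) of batch 3, both on log axes, with lines at equality and at 4-fold. Of the 52 genes, 42 lie at 4-fold or more on the neuron side, and Syn3 and Unc13b lie on the astrocyte side.

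Across the transgene neurons, with levels centred within group and batch, a few members varied together. The highest rank correlations were Rab3a with Sncb (beta-synuclein, 0.679), Syp with Syngr3 (0.675), Rab3a with Bin1 (amphiphysin-2, 0.625), Syp with Scamp5 (0.598) and Syngr3 with Scamp5 (0.562). The lowest were Rab3b with Sv2c (-0.284), Syt4 with Cplx2 (-0.266) and Syt4 with Syn3 (-0.211). The median over all 1326 pairs was 0.081. These are descriptions over cells that share libraries and depth, and the correlation of a member with the total count of its cell ran from -0.294 to 0.337.

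Promoter letters were read for 42 of the 52 members from the RefSeq promoter table (GRCm38.p6, 250 bases before to 50 after the start). Of these, 10 had several promoters. A gene was counted for a motif if any of its promoters held it, which favours genes with more promoters. GC content and CpG ratio are the highest over the promoters of a gene. The stretches shown are those of the most correlated pair, Rab3a and Sncb, with the GC box in capitals (read from the opposite strand), of Syn1 with a cyclic AMP response element in capitals, and of Napa, which has a pair of E-boxes, in capitals. Each runs 5′ to 3′ on the strand of the gene from 250 bases before its start up to the first annotated exon base of any gene. The positions are chr8:70754453-70754678 (plus strand) for Rab3a, chr13:54766596-54766845 (minus) for Sncb, chrX:20921005-20921168 (minus) for Syn1 and chr7:16098330-16098457 (plus) for Napa.
Rab3a: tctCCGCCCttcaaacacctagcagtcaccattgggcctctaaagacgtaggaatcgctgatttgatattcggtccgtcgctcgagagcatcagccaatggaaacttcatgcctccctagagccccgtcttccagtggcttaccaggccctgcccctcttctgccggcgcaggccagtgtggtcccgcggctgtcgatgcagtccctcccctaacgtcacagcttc
Sncb: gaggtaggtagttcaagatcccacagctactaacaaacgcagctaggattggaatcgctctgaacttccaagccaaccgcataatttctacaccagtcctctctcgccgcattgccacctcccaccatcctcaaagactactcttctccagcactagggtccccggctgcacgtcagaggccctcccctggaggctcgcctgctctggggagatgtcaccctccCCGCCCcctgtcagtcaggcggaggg
Syn1: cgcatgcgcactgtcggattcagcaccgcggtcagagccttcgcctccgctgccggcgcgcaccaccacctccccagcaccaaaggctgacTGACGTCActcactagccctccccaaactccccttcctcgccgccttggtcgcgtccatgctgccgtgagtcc
Napa: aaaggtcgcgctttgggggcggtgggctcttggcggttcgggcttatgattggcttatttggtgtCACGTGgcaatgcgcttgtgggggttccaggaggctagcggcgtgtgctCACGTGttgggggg
The GC box GGGCGG, the letters bound by Sp1 and read on either strand, was in 34 of the 42 members (81%). The share was 68.8% of the genes tested here that have a promoter and 38.2% of all 27025 genes with one. The median GC content was 64.5% for the members, 62.3% for genes tested and 53.3% for all. The cyclic AMP element TGACGTCA was in 3 members, Napa, Syn1 and the endophilin gene Sh3gl2 (7.14%, against 3.74% of genes tested and 2.03% of all), and the E-box CACGTG in 6 (14.3%, against 11.6% and 8.09%). The TATA letters TATAAA were in 2, Rab3b and Sv2b (4.76%, against 8.66% and 15.7%). The RE1 motif of the repressor REST, searched as 1 strict pattern, was in 0 of the 42 members. That pattern was in 0.0099% of genes tested and in 8 of all 27025 genes (0.0296%). With so few matches anywhere, its absence cannot show whether the member promoters hold REST sites. All motifs were read on both strands, no motif searched holds another, and a match is a description of the letters, not a bound site. Genes with over 50% GC and a CpG ratio over 0.6 made up 73.8% of the members and 73.7% of genes tested.

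Vehicle-treated 97Q and 25Q neurons were compared to ask what went with the longer repeat. In edgeR's quasi-likelihood test over 15091 genes (Benjamini-Hochberg adjusted p under 0.05), 0 of the 51 members tested passed, against 0% of all genes. The fitted difference was above zero for 27 members (above for 52.4% of all genes) and below for 24, with a median log2 difference of 0.10 for members and 0.06 for all genes. By batch, before fitting, the members' median was 0.10, 0.02 and -0.30 in batches 1, 2 and 3. At an unadjusted p under 0.05, 3 members were higher (background 1.5%) and 3 lower (2.46%), 6 in all (3.96%). The sums of the groups did not overlap for 1 member on the higher side (3.78%) and 4 on the lower (4.68%), and for 0 of these 5 did that hold when the richest neuron of any of the sums was left out. In all 3 batches 8 members were higher (15.8%) and 12 lower (13.2%). The vehicle sums of 97Q and 25Q also enter the drug comparisons that follow, so those are not independent of this one.

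Rab3c, a neuronal Rab3 GTPase (chr13:110054187-110280996, minus strand), had 361, 153 and 609 CPM in 25Q vehicle in batches 1, 2 and 3 and 114, 109 and 196 CPM in 97Q vehicle. Each 97Q sum was below the 25Q sum of its batch, while the groups overlapped through batch 2. The log2 difference was -1.26 (SE 0.362), with p = 0.0064 and an edgeR adjusted p of 0.969. By single cells the medians were 336 and 130 CPM.

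Stxbp2 (chr8:3630955-3643644, plus strand) had 177, 27.2 and 149 CPM in 25Q vehicle and 57.2, 11.0 and 65.9 CPM in 97Q vehicle. It was lower in 97Q in every batch, by -1.43 on the log2 scale (SE 0.429, p = 0.0083, edgeR adjusted p = 0.969). Dnm3, a dynamin of brain synapses, had 250, 347 and 338 CPM against 154, 71.3 and 236 CPM. All 97Q sums of Dnm3 were below all 25Q sums, and the log2 difference was -1.16 (SE 0.396, edgeR adjusted p = 0.969).

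On the higher side stood 3 vesicle membrane proteins. Syngr3 had 577, 303 and 574 CPM in 25Q vehicle and 692, 741 and 862 CPM in 97Q vehicle, without overlap (log2 difference 0.72, SE 0.316). Sv2a, the SV2 glycoprotein found on most vesicles, had 319, 145 and 342 CPM against 339, 284 and 628 CPM (0.61, SE 0.244). Scamp5, a secretory carrier protein of vesicles, had 86.8, 143 and 108 CPM against 252, 254 and 118 CPM (0.77, SE 0.319), and its groups overlapped through batch 3 of 97Q. All 3 had an edgeR adjusted p of 0.969.

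The other members named by their p had wider errors. Sv2c was at 29.1, 57.8 and 106 CPM in 25Q and 0.109, 22.2 and 28.5 CPM in 97Q, with no overlap (log2 difference -2.28, SE 1.18). Sv2b had no count in 1 sum of each group and at most 0.631 CPM in 97Q against up to 87.6 CPM in 25Q, where 1 neuron held 99.6% of that sum. Stx1a, the syntaxin of the fusion complex, had a log2 difference of 1.12 (SE 0.551) and Syp of 0.47, while the active zone genes Rims1 and Erc2 had -1.36 and -1.14. By role, 3 of 4 genes of the Rab3 role were on the lower side (median log2 difference -0.75), as were 4 of 5 sensors tested (-0.52). The mean of Rab3a was higher in 97Q (691 CPM against 508 CPM). Vesicle proteins were mostly higher (8 of 12, median 0.16), as were endocytosis genes (6 of 8, median 0.39). The median of the Rab3 role was below zero in each batch, while that of the sensors was 0.04 in batch 1 and that of the endocytosis genes -0.24 in batch 3.

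Markers of cell identity differed between the same sums. The 3 GABAergic markers summed to 2038, 2368 and 4713 CPM in 25Q vehicle and to 823, 676 and 1653 CPM in 97Q vehicle, and 11 of 12 striatal projection neuron markers tested were lower in 97Q (median log2 difference -1.52). The 14 pan-neuronal markers summed to 6285, 4741 and 8136 CPM in 25Q and to 6737, 8379 and 8007 CPM in 97Q. The part of these markers in the values of Rab3c, Sv2c and the other members was not tested.

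**Figure D3:**
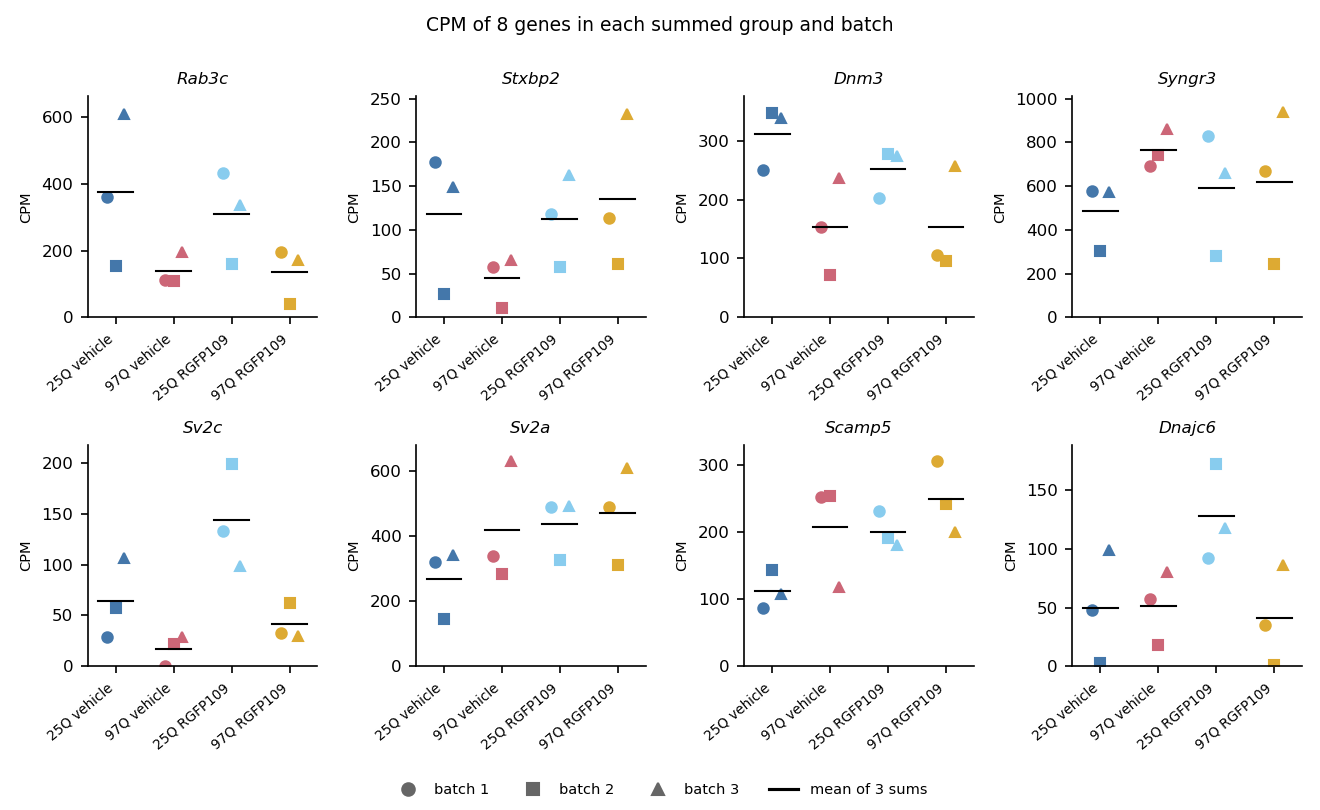
CPM on a linear axis of 8 named members in the sums of the 4 transgene groups, 1 point a batch, with the mean as a line. For Rab3c the 97Q vehicle sums (114, 109 and 196 CPM) lie below the 25Q vehicle sum of the same batch, and for Stxbp2 the 97Q vehicle group has the lowest mean of the 4 groups (44.7 CPM).

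RGFP109 was compared with vehicle in 97Q neurons to ask what the inhibitor went with in the presence of the expanded repeat. In edgeR, 0 of 51 members passed, against 0% of all genes. At an unadjusted p under 0.05, 1 member was higher (background 1.39%) and 0 lower (1.09%), 1 in all (2.48%). The fitted difference was above zero for 27 members (48% of all genes) and below for 24, with a median of 0.04 for members and -0.04 for all genes. By batch, before fitting, the members' median was 0.06, -0.43 and 0.33 in batches 1, 2 and 3. Pan-neuronal markers were lower in 10 of 14 (median -0.35), with sums of 6737, 8379 and 8007 CPM under vehicle and 4836, 3672 and 8909 CPM under RGFP109, and their part in the members' values was not tested. The sums did not overlap for 3 members on the higher side (2.76%), Unc13b, Sv2b and Sv2c, and for 0 on the lower (3.39%). For 0 of the 3 did this hold when the richest neuron of any of the sums was left out. In 3 of 3 batches 7 members were higher (9.64%) and 4 lower (14.1%).

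The member with the smallest p was Stxbp2. Its 97Q sums were 57.2, 11.0 and 65.9 CPM under vehicle and 113.2, 61 and 232 CPM under RGFP109. It was higher with the drug in each batch, with overlap between groups (log2 difference 1.90, SE 0.440, p = 0.0017, edgeR adjusted p = 0.999). DESeq2, run as an alternative on the same sums, gave 1.93 (SE 0.473) with an adjusted p of 0.0144, the only member past the threshold in any comparison under the alternatives run, and that tool also called 110 genes here where edgeR called 0. Without the neuron lowest in pan-neuronal markers the edgeR difference was 1.99. Medians over single cells were 61.1 CPM under vehicle and 116 CPM under RGFP109. Astrocytes had 88.4 CPM of Stxbp2, and the astrocyte markers summed to 429, 303 and 228 CPM in 97Q vehicle and to 556, 477 and 438 CPM in 97Q RGFP109. Without the neurons rich in astrocyte markers the Stxbp2 difference was 2.00 (SE 0.531).

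Of the others, Sv2c was at 32.9, 62.4 and 30.1 CPM with RGFP109, above every 97Q vehicle sum (log2 difference 1.94). Sv2b was at 5.43, 48.4 and 5.08 CPM against at most 0.631 CPM, but a single neuron held all counts of the batch 2 sum and 99.3% and 99% of the others. Syp was at 708, 613 and 564 CPM under vehicle and 1028, 513 and 1086 CPM under RGFP109 (0.50), lower with the drug in batch 2. The active zone gene Erc1 (0.86) was at 157, 71.1 and 70.4 CPM under vehicle and 130, 253 and 94.0 CPM with RGFP109, lower in batch 1. The vesicle chaperone Dnajc5 (0.48) was at 347, 139 and 199 CPM and 374, 234 and 239 CPM, higher in each batch with overlap. Vesicle proteins were higher in 10 of 12 (median 0.43), while all 4 genes of the Rab3 role were on the lower side (median -0.55). The vesicle median was above zero in each batch, but that of the Rab3 role was -0.80, -2.08 and 0.61 in batches 1, 2 and 3, and 0 of its genes were lower in all 3.

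In 25Q neurons the drug comparison shows the inhibitor with the short repeat. In edgeR 0 of 51 members passed, against 0% of all genes, and at an unadjusted p under 0.05 there were 5 members higher (background 1.12%) and 0 lower (1.4%), 5 in all (2.52%). The fitted difference was above zero for 37 members (50.1% of all genes) and below for 14, with a median of 0.18 on the log2 scale against 0.00 for all genes. By batch, before fitting, the members' median was 0.55, 0.43 and 0.01, so batch 3, with the most cells, had almost no shift. In 3 of 3 batches 13 members were higher (12.3%) and 3 lower (13.8%), and the sums did not overlap for 4 on the higher side (2.89%) and 2 on the lower (3.84%). Syngr1 alone kept this without the richest neuron of any of the sums. Pan-neuronal markers were higher in 10 of 14 (median 0.28) and 10 of 12 striatal projection markers were lower (median -1.47), and their part in these counts was not tested.

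Vesicle proteins were 3 of the 5 members higher at an unadjusted p under 0.05. Sv2a was at 319, 145 and 342 CPM under vehicle and 489, 325 and 492 CPM under RGFP109, higher in each batch with overlap (log2 difference 0.77, SE 0.244, p = 0.0110, edgeR adjusted p = 1). Scamp5 was at 231, 191 and 181 CPM with the drug, above all vehicle sums (0.84, SE 0.319). Syngr1, a synaptogyrin, was at 71.3, 84.2 and 76.8 CPM under vehicle and 135, 175 and 112 CPM with the drug, also without overlap (0.86, SE 0.349). Over the role, 10 of 12 vesicle proteins were on the higher side, with a median of 0.80. Their median difference was 0.70, 0.64 and 0.08 in batches 1, 2 and 3, and 3 of the 12 were higher in all 3 batches.

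Batch 2 set the size of the differences of Dnajc6, Ppfia2 and Stxbp5. Dnajc6, the neuronal auxilin that uncoats vesicles, was at 47.7, 2.92 and 98.9 CPM under vehicle and 92.6, 173 and 118 CPM under RGFP109 (2.77, SE 1.21). Ppfia2, a liprin of the active zone, was at 85, 20.7 and 204 CPM and 146, 447 and 207 CPM (1.69, SE 0.714). Stxbp5, the SNARE regulator tomosyn, had a difference of 1.66 with 151 CPM in batch 2 of the drug group and 18.2 CPM in batch 3. The sums of batch 2 came from 4 cells a group, and without that batch the differences were 0.70 for Dnajc6, 0.48 for Ppfia2 and 0.29 for Stxbp5. Endocytosis genes were higher in 6 of 8 (median 0.40), SNARE genes in 7 of 8 (0.17) and priming genes in 7 of 9 (0.22), whereas 3 of 4 genes of the Rab3 role were lower (median -0.32; 0.13 in batch 1).

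Under RGFP109, 97Q was compared with 25Q to ask whether the repeat lengths differed in treated neurons. In edgeR 0 of 51 members passed, against 0% of all genes, and 0 were higher (background 1.9%) and 2 lower (1.84%) at an unadjusted p under 0.05. The median log2 difference was -0.35 for members and 0.00 for all genes, with 19 members above zero (50.1% of all genes) and 32 below. By batch the members' median was -0.46, -0.55 and 0.19, so batch 3, with the most cells, had the opposite sign. The sums did not overlap for 1 member on the higher side (3.6%), Syn3, and 2 on the lower (3.58%), Sv2c and Dnajc6, and Sv2c alone kept this when the richest neuron of any of the sums was left out. Pan-neuronal markers were lower in 12 of 14 (median -0.50). The 3 GABAergic markers summed to 3206, 2933 and 4638 CPM in 25Q RGFP109 and to 996, 575 and 1843 CPM in 97Q RGFP109. Of 12 striatal projection markers, 7 were higher in 97Q. The part of these markers in the members' values was not tested.

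Rab3c was at 432, 161 and 337 CPM in 25Q RGFP109 and 196, 39.4 and 172 CPM in 97Q RGFP109, lower in 97Q in each batch with overlap between groups (log2 difference -1.30, SE 0.361, p = 0.0054, edgeR adjusted p = 0.999). Its size was close to that under vehicle (-1.26), which came from other sums but of the same 3 batches. The interaction of repeat length and drug was -0.03 (SE 0.505). Dnajc6 was at 35.5, 1.16 and 86.7 CPM in 97Q against 92.6, 173 and 118 CPM in 25Q (-3.13, SE 1.24). Snap25 was at 1363, 1593 and 2607 CPM in 97Q against 1872, 2046 and 3505 CPM, lower in each batch (-0.35, SE 0.175). Dnm3 (-0.79) and Ppfia2 (-1.31) were lower and Syp (0.54) higher, all with an edgeR adjusted p of 0.999.

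The interaction asks whether the drug difference was larger in 97Q than in 25Q. In edgeR 0 of 51 members passed, against 0% of all genes, with 1 member above zero (background 1.58%) and 0 below (1.02%) at an unadjusted p under 0.05. That member was Stxbp2, where the drug difference exceeded that of 25Q by 1.72 on the log2 scale (SE 0.598, p = 0.0174, edgeR adjusted p = 0.998), with the same sign in 3 of 3 batches. In 25Q itself Stxbp2 was at 177, 27.2 and 149 CPM under vehicle and 118, 57.4 and 162 CPM with the drug, a log2 difference of 0.18. The next were Dnajc6 (-3.66), Stx1a (-1.66), Ppfia2 (-1.54), Erc1 (1.21) and Syn3 (1.19). Batch 2 set much of the size of the first 3. There, vehicle and drug sums of Dnajc6 were 2.92 and 173 CPM in 25Q and 18.0 and 1.16 CPM in 97Q. For Stx1a they were 25.1 and 65.3, then 138 and 15.8 CPM. For Ppfia2 they were 20.7 and 447, then 57.6 and 92.4 CPM. In batch 3 Stx1a was at 127 and 162, then 160 and 139 CPM. Ppfia2 was at 204 and 207, then 175 and 159 CPM. The 97Q drug sum of batch 2 holds the neuron that stood apart. Of the 51 members, 18 lay above zero (48.4% of all genes) and 33 below. By batch, before fitting, the members' median was -0.30, -1.04 and 0.45 in batches 1, 2 and 3. All 4 genes of the Rab3 role and 7 of 8 SNARE genes lay below zero, and all 5 sensors tested lay above it (median 0.12). In batch 3 the medians went the other way for the Rab3 role (1.07) and the SNARE genes (0.93), and the sensors' median was -0.22, -0.01 and 1.05 in batches 1, 2 and 3.

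**Figure D4:**
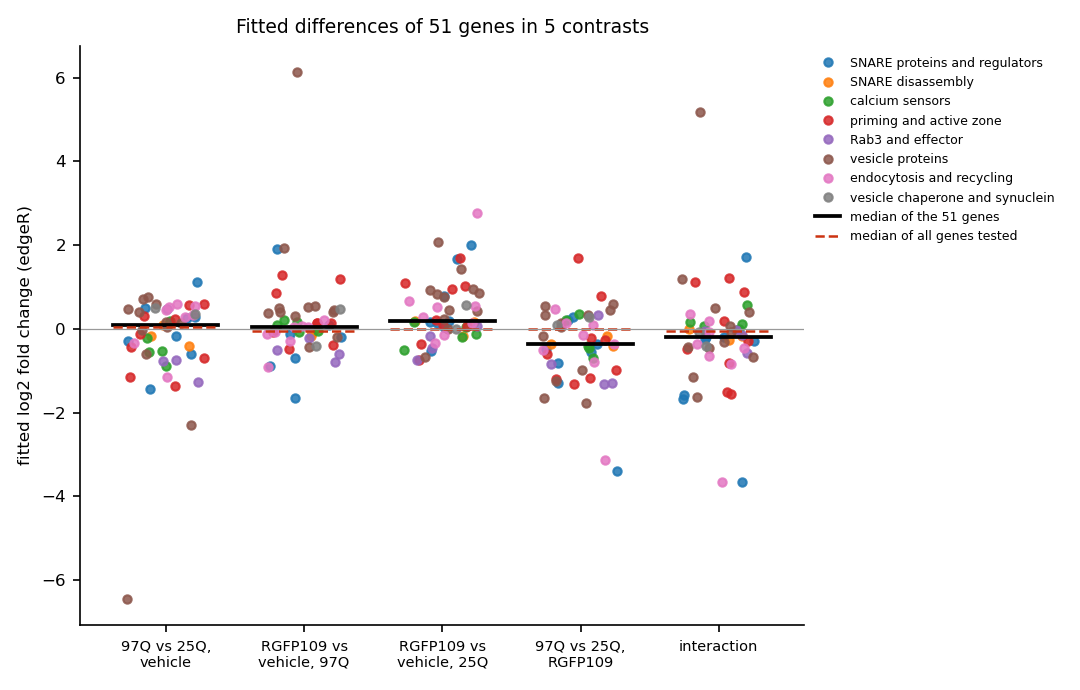
Fitted log2 difference of the 51 members tested, by role, in the 5 comparisons, with the median of all genes tested as a reference line. The members' median lay furthest from that of all genes for 97Q against 25Q under RGFP109 (-0.35 against 0.00). Next was RGFP109 in 25Q (0.18 against 0.00). In batch 3 alone, before fitting, the members' median was 0.19 in the former comparison and 0.01 in the latter. No member passed the adjusted threshold in edgeR.

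Among 94 other genes of vesicle traffic and release listed beside the members, such as further SNAREs, adaptors, clathrin and the vesicle proton pump, 91 were found and 78 tested. None of the 78 passed in edgeR in any comparison, against 0% of all genes. At an unadjusted p under 0.05, 2 were higher (background 1.5%) and 4 lower (2.46%) in 97Q against 25Q under vehicle, 0 (1.39%) and 2 (1.09%) with RGFP109 in 97Q, and 4 (1.12%) and 0 (1.4%) with RGFP109 in 25Q. For 97Q against 25Q under RGFP109 the counts were 1 (1.9%) and 4 (1.84%), and for the interaction 0 (1.58%) and 4 (1.02%). Under vehicle the SNARE gene Vamp4 was lower in 97Q (-1.42, SE 0.469), and Tprgl, whose product sits on vesicles (1.47, SE 0.498), and the proton pump subunit Atp6v1h (0.73, SE 0.236) were higher. Their median log2 differences were 0.10, 0.06, 0.14, -0.06 and -0.06 in the 5 comparisons.

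Empty vector neurons were set beside 25Q vehicle neurons of batch 3 as the control for the construct, with 1 sum a group and no test. At 4-fold or more, 6 members were higher in empty vector neurons, against 8.85% of 15551 genes, and 2 were lower, against 15.7%. The median ratio was 1.05 for members and 0.905 for all genes. Syn1 (synapsin-1) was 8.56-fold higher, Cplx2 7.44-fold, Synpr 6.92-fold, Bin1 6.77-fold, Rph3a 5.06-fold and Vamp2 4.90-fold. One neuron held 78.4% of the Cplx2 counts and 72.4% of the Synpr counts of the empty vector group, and without the richest neuron of each gene only Syn1 (6.32-fold) and Bin1 (5.95-fold) stayed past 4-fold. By the ratio of medians over cells, 7 members were past 4-fold. Among these were Cplx2 (8.42), Synpr (328), Bin1 (22.5) and Rph3a (189), but not Syn1 (3.88) or Vamp2 (3.01). The 25Q medians of Synpr and Rph3a were 0.386 CPM each. Unc13b was 4.02-fold lower (interval 3.37 to 4.81), with 88.4% of its empty vector counts in 1 neuron. With every cell thinned to 900000 counts its ratio to 25Q was 0.490, short of the 4-fold limit, and without that neuron 0.0314. Sv2b had no count in empty vector neurons, which allows up to 0.0701 CPM, and 24.8 CPM in 25Q, at least 354-fold more. Its median over cells was 0 CPM in both groups, and 1 neuron held 59.2% of the 25Q counts (10.8 CPM without it).

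Some members followed the batch more than any group. All 4 batch 3 sums lay below all 8 sums of batches 1 and 2 for 3 members, against 2.13% of all genes. These were Vamp2 (77.3 to 163 CPM in batch 3, 210 to 881 CPM in batches 1 and 2), Syn1 (22.6 to 65.1 and 116 to 518 CPM) and Dnm1 (31.9 to 42.5 and 75.8 to 217 CPM). Batch 3 lay above for 2 members, against 2.25%, namely Snap25 (2607 to 3505 and 1363 to 2046 CPM) and Napa (694 to 798 and 268 to 463 CPM). The empty vector neurons, which are also of batch 3, had 424 CPM of Vamp2, 251 CPM of Syn1 and 107 CPM of Dnm1, inside the range of batches 1 and 2. Across members, the rank correlation between the GC content of the exons and the empty vector minus 25Q difference of batch 3 was 0.405, against 0.215 over all 15076 genes with a value. The exon GC content ran from 38.7% in Snap25 to 61.4% in Sncb, and its part in these ratios was not tested.

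**Figure D5:**
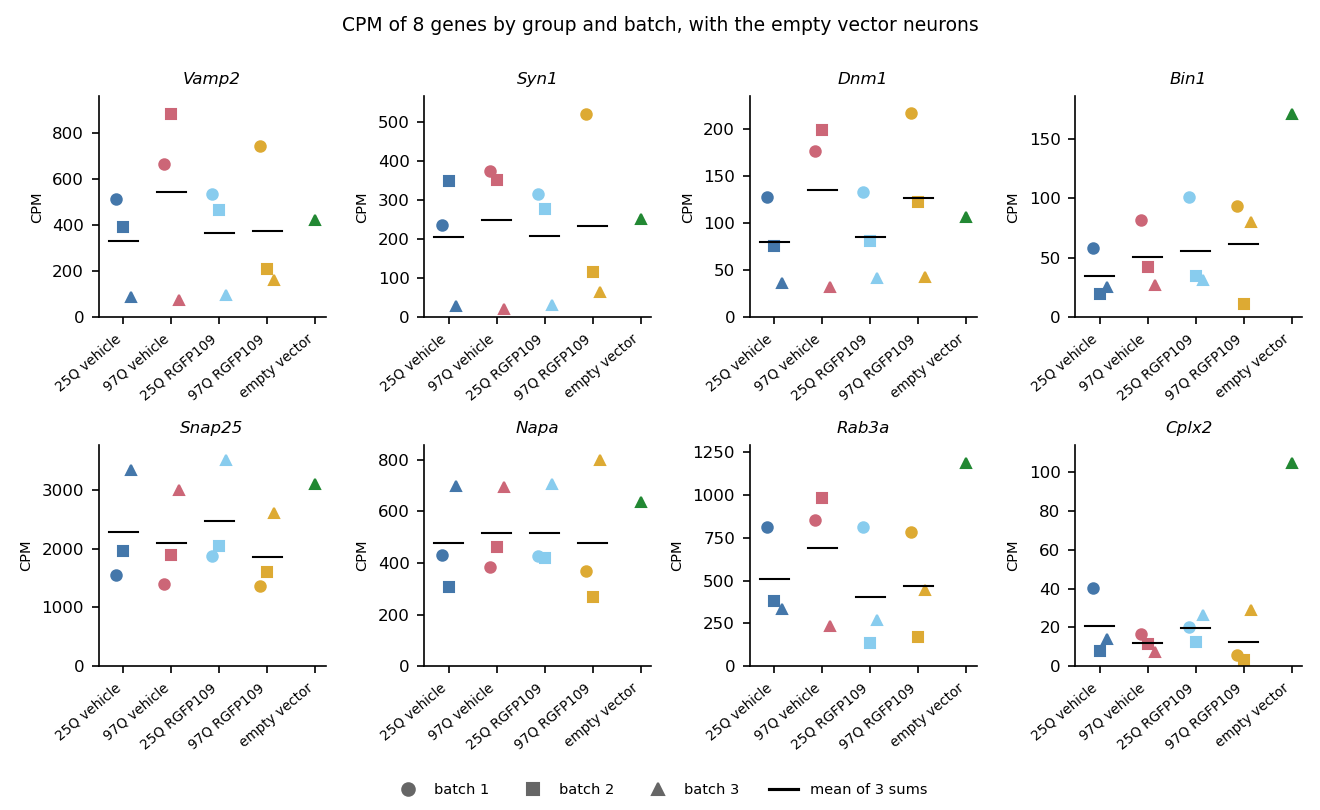
CPM on a linear axis of 8 members in each sum by group, with the marker shape for the batch, a line at the mean of 3 sums and the empty vector sum of batch 3. In the 4 transgene groups batch 3 lies below batches 1 and 2 for Vamp2, Syn1 and Dnm1 and above them for Snap25 and Napa; the empty vector neurons lie at 424 CPM for Vamp2 and 251 CPM for Syn1.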

How the data were processed

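RNA of 113 neurons and 14 astrocytes was measured by Patch-seq with SMARTer cDNA and Nextera XT libraries, per the labels' protocols. The series text names 117 neurons, and the remainder were not analysed here. The authors deposited raw read counts per Ensembl gene, 1 column a cell; the submitters' processing notes name FastQC, Trimmomatic 0.36, STAR 2.5, HTSeq 0.9.1, with GRCm38 and mm10 as builds, and how strand was treated is not given in the sources used here. Libraries had no molecular identifiers, so PCR copies count as reads and intervals cover counting error only.

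Counts were summed by group and batch and fitted in edgeR 4.0.16 (R 4.3.3, TMM, robust quasi-likelihood, terms for group and batch, 6 residual degrees of freedom) over the 15091 genes that passed filterByExpr and had a count in at least 20% of the 104 transgene neurons. SE is the size of the log2 difference divided by the square root of F. The batch, which the labels give for each cell, served as the replicate. Deviations of sums of a shared batch correlated at 0.097 to 0.299 (lowest in batch 2, highest in batch 3), and at most at 0.035 between batches. Alternatives used DESeq2 1.42.0, limma 3.58.1, other filters, cell weights and left-out batches. The fit was tested on simulated data.

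Gene positions and exon lengths came from GENCODE M21 on GRCm38, and 53274 of 53465 identifiers had a symbol. No cells had identical counts. The members and lists were chosen with earlier results of these data known. Members were named by rank: the smallest unadjusted p in each comparison (12 in the first, 6 in the others), the 8 highest and 4 lowest levels, the 4 largest and 4 smallest spreads, the 5 largest and smallest neuron to astrocyte ratios, the 3 largest and smallest empty vector to 25Q ratios and the 5 highest and 3 lowest pairs, plus relatives within a family.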

Additional observations from a re-analysis of the deposited data

Results flagged for a closer look

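Outliers were looked for in 15 sets of values from the 9 empty vector neurons, as a highest or lowest cell whose gap to its neighbour exceeded 0.493 of the whole range, and 6 were found. The sets were the genes named for the largest and smallest empty vector ratios, and the sum of the 52 genes. For normally distributed values chance alone marks about 1 in 20 sets. These CPM are skewed, and 1 rich neuron can itself make a ratio large. The number found therefore cannot be set against that rate, and the rate for these sets was not tested. Synpr reached 3190 CPM in 1 neuron, with the next at 641 CPM and a median of 127 CPM. Cplx1 reached 1209 CPM (next 371, median 260) and Cplx2 621 CPM (next 89.3, median 18.9). Rph3a reached 290 CPM (next 141, median 73.1), and Unc13b 36.4 CPM, with the next at 1.84 CPM and a median of 0. On the low side, 1 neuron had a summed level of the 52 genes of 10420 CPM, with the next at 17145 CPM and a median of 18376 CPM. That neuron was also the empty vector neuron rich in astrocyte markers, at 1521 CPM. The part of single neurons in the empty vector ratios of Cplx2 and Synpr is given with those ratios.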

How the results depend on the processing

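Over 14 alternatives (13 for the interaction), 1 of them chosen after seeing the data (leaving out the neuron lowest in pan-neuronal markers, as were the sums without the richest neuron or without Synpr), the count of members past the threshold was 0 in 68 of 69 refits. The exception was DESeq2 for RGFP109 in 97Q, with 1 member, Stxbp2 (log2 difference 1.93, adjusted p = 0.0144). The cause was not tested; DESeq2 called 213, 110, 143, 277 and 70 of all genes in the 5 comparisons, and edgeR 0. Leaving out a batch gave 0 to 0 members in every comparison. Without the replicate block the count was 0 in each comparison, and the block changed no call. Of 498 refits of the 36 named differences, 495 kept their direction and side of the threshold. Syp reversed when each cell was weighted equally, to -0.37 for RGFP109 in 97Q and to -0.11 for 97Q against 25Q under RGFP109, and the cause was not tested. Ratios with 1 sum a group moved by more than their counting interval in 22 of 25 recomputed values.

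Sums of batch 2 hold 3 or 4 cells a group, and a common biological coefficient of variation of 0.93 limits which differences the 3 sums a group can resolve. Counts of Syt2, Sv2b and Vamp1 were present in 10, 31 and 44 of the transgene neurons.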
